A study of Mus musculus with 6 samples.

Results

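Oxidative phosphorylation is carried out by enzyme complexes of the inner mitochondrial membrane: complexes I to IV pass electrons from NADH and succinate to oxygen, complexes I, III and IV pump protons on the way, and complex V, the ATP synthase, uses the returning protons to make ATP. Most subunits are encoded in the nucleus and a few in the mitochondrial genome, so that both sets have to be made in step. In the cornea the pumping endothelium and the renewing epithelium are the main users of mitochondrial ATP.

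The genes described here are the nuclear genes of these complexes, taken from the deposited table by their symbols: all that begin with Ndufa, Ndufb, Ndufc, Ndufs, Ndufv, Uqcr, Cox4 to Cox8 or Atp5, the Sdha to Sdhd genes, Cyc1 and Cycs. The rule uses no measured value, but the members were chosen with earlier results of these data known. It found 97 of the 17794 genes in the table. By complex there were 39 subunit genes of complex I (7 of the catalytic core and 32 supernumerary subunits), 8 complex I assembly factors (Ndufaf1 to Ndufaf8), 4 genes of complex II, 9 of complex III with Cyc1, 1 of cytochrome c, 19 of complex IV and 17 of complex V. Ndufa4 was counted with complex IV, where its protein is found, together with its paralog Ndufa4l2 and with Cox7a2l. Subunits encoded in the mitochondrial genome were not analysed here.

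Whole mouse corneas were sampled after benzalkonium chloride (BAC), a detergent preservative, had induced experimental dry eye in both groups. Vehicle or luteolin, a plant flavone, was then given for 10 days, and RNA of 3 corneal samples per group was sequenced as TruSeq libraries. The labels give the cell type as multiple and name no strain, age, sex or dose, and do not state that each library is another animal. The p-values therefore refer to the spread among these samples alone, part of which may be technical. Library totals were 16084855 to 16469699 estimated counts. Corneas without BAC were not analysed here.

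RNA of some cell type markers differed between the groups, and bulk RNA cannot tell fewer cells of a type from less RNA per cell. Of 9 tested macrophage and leukocyte markers 8 were lower and 1 higher with luteolin, and their summed level was 522 to 856 CPM (counts scaled to a common library total) with vehicle and 229 to 284 with luteolin. Of 8 corneal epithelial markers 7 were higher and none lower, with sums of 43401 to 51233 and 75161 to 77977 CPM. Keratocyte markers (1 of 8 higher, 2 lower) summed to 3317 to 8724 and 2128 to 4547 CPM, and endothelial markers (2 of 6 lower) to 942 to 1089.9 and 776 to 865 CPM. Skeletal muscle markers, of a mitochondria-rich tissue, varied widely between libraries of a group, and 0 of 11 were called. They summed to 15.1 to 233 CPM with vehicle (lowest in vehicle 3) and 17.6 to 100.2 with luteolin (highest in luteolin 3). Their mean log2 CPM was 3.20, 4.03 and -1.67 in vehicle 1 to 3 and -0.80, -1.10 and 2.51 in luteolin 1 to 3. The groups were thus not balanced in muscle RNA, and the median log2 fold change of these markers was -1.67. No marker was at 0 in every library. The part of cell content in the results below was not tested, apart from a fit with the muscle level as a covariate, given after the first counts.

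Most oxidative phosphorylation genes stood somewhat lower with luteolin, and few stood higher. Of the 91 members with enough counts to be tested, 44 were lower and 3 higher by edgeR's quasi-likelihood test at a Benjamini-Hochberg adjusted p under 0.05, the threshold used throughout. Over all 13838 tested genes 30.4% were lower and 28.5% higher, against 48.4% and 3.30% of the tested members. The median log2 fold change (luteolin minus vehicle) was -0.20 over the tested members and -0.02 over all tested genes. Unless another scale is named, log2 fold changes are edgeR's on counts, also where TPM values stand beside them. The decreases were small: 10 of the 44 exceeded 0.5 on the log2 scale and 20 were under 0.3. Without luteolin 1, and likewise without luteolin 2, 29 members were lower. Over all genes those fits called 6819 and 6795 genes, of which 52.5% and 53.0% were lower, against 8157 with all libraries. With the muscle level as a covariate 33 members were lower and 2 higher, beside 27.0% and 26.0% of all genes, and all 33 were among the 44. Of the 44 members that did not pass, 34 had a log2 fold change below 0 and 10 above 0. All 3 luteolin libraries were below all 3 vehicle libraries for 52 members, where 33.7% of all tested genes had this order, and above them for 7 members, where 33.8% of all tested genes had it.

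This direction depends on how gene length is handled. The members are short genes, and with a correction for length, described further below, 20 were lower and 11 higher, with a median of -0.01. Over all genes 30.9% were lower and 26.2% higher in that fit. With library sizes alone in place of scaling factors 58 members were lower and 2 higher, beside 37.2% and 21.3% of all genes, and the median over all genes moved from -0.02 to -0.13. On log2(TPM + 1) values, tested with limma, 57 were lower and 2 higher, beside 30.5% and 27.9%. TPM, the deposited level per gene length, scales transcripts to a common total in each library. Of all calls among members, 93.6% were decreases with the scaling factors used throughout and 64.5% with the length correction. Over all genes that share was 51.6% with those factors and 63.6% with library sizes alone.

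**Figure D1:**
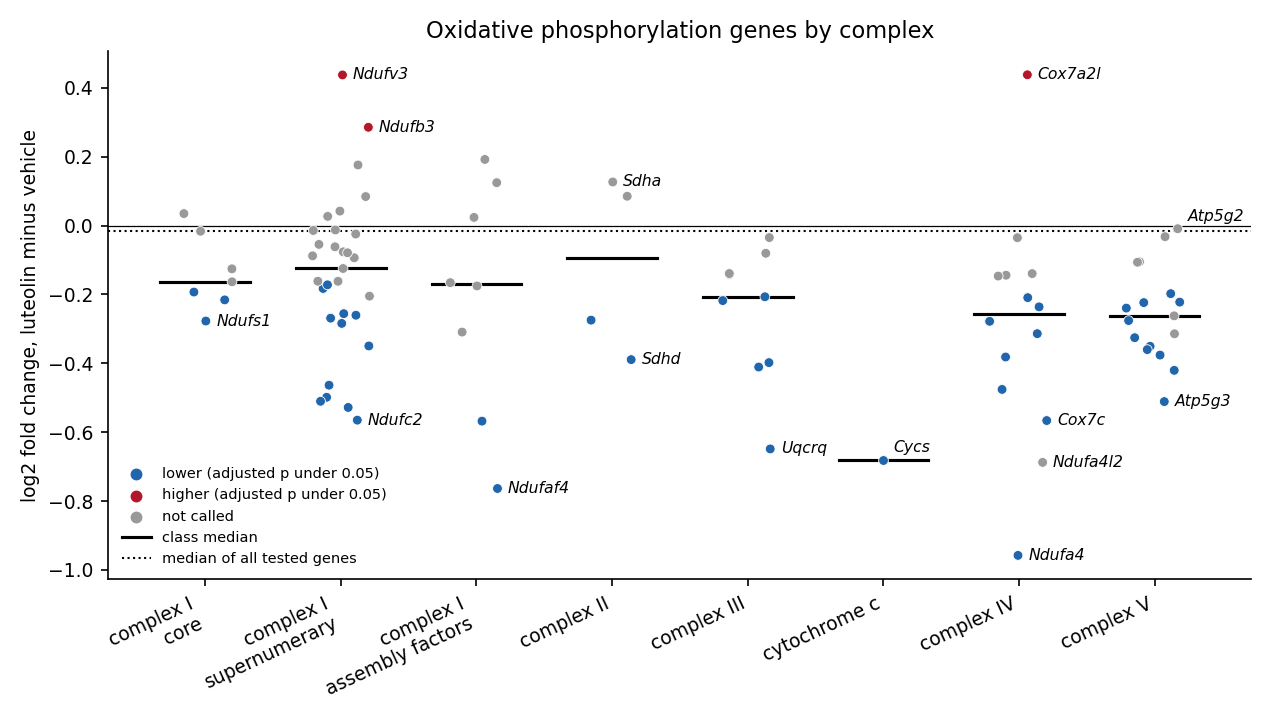
Each point is 1 tested member, placed by complex on the horizontal axis and by its log2 fold change (luteolin minus vehicle) on the vertical axis. Thick bars are class medians and the dotted line is the median of all 13838 tested genes. Medians of every class lie below 0, from -0.09 in complex II to -0.26 in complexes IV and V and -0.68 for the single cytochrome c gene, and the 3 higher members are Ndufv3, Ndufb3 and Cox7a2l. Length correction brings the medians other than that of cytochrome c to between -0.07 and 0.05.

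Complex I, the NADH dehydrogenase, had 15 lower and 2 higher genes among its 38 tested subunits, with a median log2 fold change of -0.14. These are 39.5% lower and 5.26% higher, beside 30.4% and 28.5% of all tested genes. Of all tested genes with a length of up to 800 bases, described further below, 42.0% were lower and 12.8% higher. The sum of its subunits was 6515 ± 157 TPM (SD, n = 3) with vehicle and 5668 ± 48.0 with luteolin. In the catalytic core, whose subunits carry the flavin and the iron-sulfur clusters, 3 of 7 genes fell (42.9%) and none rose. Ndufs1, the large iron-sulfur subunit, was at 54.4, 43.1 and 45.3 TPM with vehicle and 40.6, 38.1 and 38.9 TPM with luteolin (log2 fold change -0.28, SE 0.09, adjusted p = 0.0292). Ndufv2, an iron-sulfur subunit of the NADH-binding module, differed by -0.22 (adjusted p = 0.0226) and Ndufs8, which carries iron-sulfur clusters near the quinone site, by -0.19 (adjusted p = 0.0284). The Ndufs1 and Ndufs8 calls each end when vehicle 1, vehicle 3 or any 1 luteolin library is left out, and the Ndufv2 call ends without luteolin 1 or luteolin 2. Ndufv1, which binds NADH and the flavin, had a log2 fold change of -0.02 (adjusted p = 0.837) with overlapping groups.

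Among the 31 tested supernumerary subunits, which surround the core and serve in assembly and stability, 12 fell (38.7%) and 2 rose (6.45%). Over all tested genes 30.4% were lower and 28.5% higher. The lowest p-values among decreases were those of Ndufc2, Ndufb6 and Ndufab1. Ndufc2, a membrane arm subunit, was at 224, 185 and 217 TPM with vehicle and 144, 134 and 135 TPM with luteolin (log2 fold change -0.56, SE 0.09, adjusted p = 0.00131). Ndufb6, also of the membrane arm, went from 111 ± 5.66 to 76.1 ± 4.09 TPM (log2 fold change -0.51, adjusted p = 0.00198). Ndufab1, the mitochondrial acyl carrier protein that complex I shares with fatty acid and lipoate synthesis, went from 142 ± 14.9 to 101 ± 5.03 TPM (log2 fold change -0.50, SE 0.09). In all 3 genes every luteolin library was below every vehicle library, and the decreases passed the threshold without any 1 library and with the length correction (-0.35, -0.29 and -0.28). Ndufc1 (-0.53), Ndufa5 (-0.46), Ndufb7 (-0.35) and 6 others between -0.28 and -0.17 made up the rest of the decreases, and none of these 9 passed with the length correction. The Ndufa5 call ends without luteolin 1, and of the 6 others the Ndufb8 call alone held without any 1 library.

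Ndufb3, a membrane arm subunit, was at 114, 105 and 113 TPM with vehicle and 122, 133 and 141 TPM with luteolin (log2 fold change 0.29, SE 0.09, adjusted p = 0.0260). Its groups did not overlap, but the call ends without vehicle 1, vehicle 2, luteolin 2 or luteolin 3. Ndufa3 and Ndufs5, small accessory subunits, had log2 fold changes of 0.18 and 0.08 that did not pass, and passed as higher with the length correction. Ndufs6b, a copy of the accessory subunit gene Ndufs6, had at most 0.257 CPM in any library and was not tested. Reads of Ndufb4 and its copy Ndufb4c were divided by the authors' counting, as were those of Ndufa13, Ndufb11, Ndufaf7 and Uqcrc2, so the values of these 6 genes are uncertain to that extent.

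Ndufv3, a small subunit of the NADH-binding module, rose on the count scale and not on the scale per length. Its CPM values were 34.7, 36.5 and 31.5 with vehicle and 44.4, 44.9 and 49.7 with luteolin (log2 fold change 0.44, SE 0.08, adjusted p = 0.00306). Its TPM values were 160, 151 and 138 with vehicle and 141, 137 and 153 with luteolin, and these overlap. The difference between the scales lies in the effective length that count and FPKM imply for the gene: 321, 354 and 328 bases with vehicle and 465, 477 and 473 bases with luteolin. Luteolin libraries thus had the longer value throughout, by 138 bases on average, where the median difference over all 11067 genes compared was 11.7 bases and that over the 91 members 11.5. The difference was noticed in these data. Where groups do not overlap, an exact two-sided permutation test can only give p = 0.1, the smallest that 3 against 3 allow. The test therefore cannot weigh this difference, and the share given next is for a gene picked for it. Only 0.0813% of the genes compared had as large a length ratio once the shift common to all genes was taken out. Ndufaf6 (110 bases) was the next member, and 82 of the 91 differed by 8 to 18 bases.

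A gene's effective length in such estimates is a mean over its transcripts. The GENCODE annotation vM21 of GRCm38, another build than the authors' mm9, holds coding transcripts of Ndufv3 that differ by 1 internal exon: Ndufv3-202 has 493 bases in 3 exons, and Ndufv3-201 has 1582 bases in 4 exons. The added exon, exon 3 of 4, has 1092 bases and lies at chr17:31527310-31528401 on the plus strand. The junctions that tell both transcripts apart are shown with the last 30 bases of exon 2 in lower case and the first 30 bases of what follows in capitals.
Ndufv3-201, exon 2 into the internal exon: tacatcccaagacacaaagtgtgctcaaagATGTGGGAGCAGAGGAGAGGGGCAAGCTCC
Ndufv3-202, exon 2 into the last exon: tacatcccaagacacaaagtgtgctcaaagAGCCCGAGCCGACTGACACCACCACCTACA
Reads over these junctions were not analysed here, so the share of each transcript was not measured. Also annotated are Ndufv3-205 (coding, 645 bases in 3 exons) and the processed transcripts Ndufv3-203 (686 bases) and Ndufv3-204 (2021 bases). Their part in the implied length was not measured either.

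**Figure D2:**
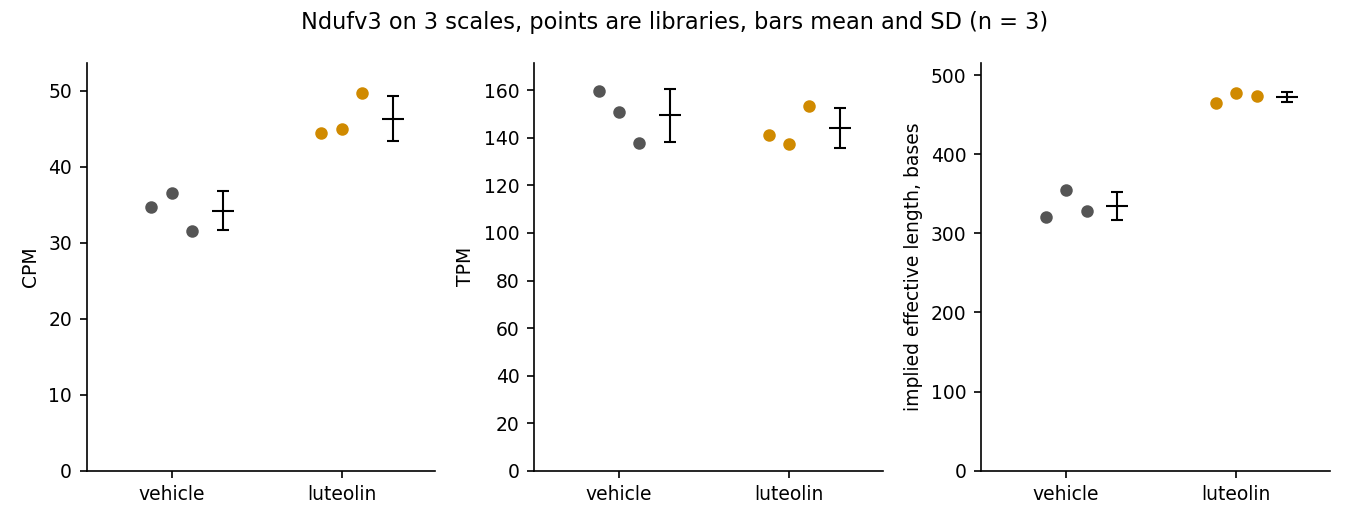
Ndufv3 in the 3 vehicle and 3 luteolin libraries, as CPM, as TPM and as implied effective length in bases; points are libraries, and bars are the mean and SD (n = 3). The groups are apart in CPM and in length (321 to 354 against 465 to 477 bases) and overlap in TPM.

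Of the 8 complex I assembly factors 2 fell and none rose. The 25% lower is under the 30.4% of all tested genes, of which 28.5% were higher. Ndufaf4, which acts early in assembly of the complex, was at 13.7, 11.2 and 11.9 TPM with vehicle and 8.37, 7.02 and 6.32 TPM with luteolin (log2 fold change -0.76, SE 0.12, adjusted p = 0.00158), the second largest decrease of all called members. All luteolin libraries were lower, and with the length correction the value was -0.82. Ndufaf5, a methyltransferase-like factor, had a log2 fold change of -0.57 (adjusted p = 0.0158) at levels of 4.30 to 8.43 TPM, and its call ends without luteolin 1. The other 6 ran from -0.31 for Ndufaf6 to 0.19 for Ndufaf3 and did not pass. Among 6 assembly genes with other names, 1 fell (16.7%): Ecsit, at -0.34 (adjusted p = 0.0276, and 0.0517 with the length correction). Its call also ends without vehicle 1 or any 1 luteolin library. Acad9, also needed for assembly, had a value of 0.20 (adjusted p = 0.0721).

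Complex II, succinate dehydrogenase, is the complex with no subunit from the mitochondrial genome. Of its 4 genes 2 fell (50%, beside 30.4% of all tested genes), both of them membrane anchors. Sdha, the flavoprotein, was at 103, 97.4 and 90.2 TPM with vehicle and 107, 104 and 105 TPM with luteolin (log2 fold change 0.13, SE 0.06, adjusted p = 0.0895). Sdhb, the iron-sulfur protein, was at 124, 126 and 118 TPM with vehicle and 130, 124 and 132 TPM with luteolin (log2 fold change 0.09, adjusted p = 0.228). Neither passed, although in CPM all luteolin libraries of both genes were above all vehicle libraries.

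The membrane anchors of complex II hold the heme and the quinone site. Sdhd was at 168, 143 and 150 TPM with vehicle and 117, 114 and 118 TPM with luteolin (log2 fold change -0.39, SE 0.07, adjusted p = 0.00231), and it was lower in each alternative tried. Sdhc was at 79.5, 77.2 and 67.0 TPM with vehicle and 58.6, 60.1 and 64.5 TPM with luteolin (log2 fold change -0.27, SE 0.08, adjusted p = 0.0213). The Sdhc call ends without vehicle 1, luteolin 1 or luteolin 2, and with the length correction (-0.13, adjusted p = 0.175). Sdhb turned to -0.03 with library sizes alone, and passed as higher with the length correction (0.24, adjusted p = 0.0116). None of 4 complex II assembly factors was called by edgeR (Sdhaf3 at -0.33, adjusted p = 0.176, and Sdhaf4 at 0.15, adjusted p = 0.265), and Sdhaf4 passed as higher with the length correction (0.36, adjusted p = 0.0386).

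Complex III, the cytochrome bc1 complex, had 5 lower and no higher genes of 9, with a median of -0.21, and all 9 log2 fold changes were below 0. The 55.6% lower stand beside 30.4% of all tested genes, of which 28.5% were higher. Uqcrq, a small subunit beside cytochrome b, changed most: 62.2, 53.6 and 61.0 TPM with vehicle and 34.7, 37.8 and 39.8 TPM with luteolin (log2 fold change -0.65, SE 0.09, adjusted p = 0.000881). The catalytic subunits encoded in the nucleus both fell. Cyc1, cytochrome c1, was at 120, 95.5 and 114 TPM with vehicle and 78.8, 80.4 and 83.9 TPM with luteolin (log2 fold change -0.41, SE 0.09, adjusted p = 0.00650). Uqcrfs1, the Rieske iron-sulfur protein, was at 152, 120 and 134 TPM with vehicle and 103, 101 and 102 TPM with luteolin (log2 fold change -0.40, SE 0.08, adjusted p = 0.00534). Luteolin libraries of these 3 genes lay below every vehicle library, and all 3 calls held with the length correction.

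The core protein Uqcrc2 (-0.22) and the small subunit Uqcr10 (-0.21) were the other decreases of complex III. The Uqcr10 call ends without vehicle 1, vehicle 3 or any 1 luteolin library, and with the length correction its value was 0.017 (adjusted p = 0.838). Uqcrh, the hinge protein between cytochromes c1 and c, had a value of -0.03 and passed as higher with the length correction. Among 6 assembly genes of complex III 2 fell (33.3%) and 1 rose, beside 30.4% lower and 28.5% higher of all tested genes. Uqcc2, which stabilises newly made cytochrome b, fell by 0.70 on the log2 scale (39.3 ± 0.835 to 24.2 ± 2.81 CPM, adjusted p = 0.000701). Ttc19 fell by 0.29. Lyrm7, which guides the Rieske protein before its insertion, rose from 0.901 ± 0.240 to 3.89 ± 0.386 CPM (log2 fold change 2.10, SE 0.26, adjusted p = 0.000517). It was low with vehicle, at 1.17, 0.702 and 0.834 CPM, and at 3.54, 3.83 and 4.31 CPM with luteolin.

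Cytochrome c, which carries electrons from complex III to complex IV, has 1 member, Cycs (gene ID 13063). Its levels were 75.2, 58.3 and 67.6 TPM with vehicle and 42.8, 40.2 and 42.7 TPM with luteolin. The luteolin libraries lay close together and below all vehicle libraries, a 1.60-fold difference (log2 fold change -0.68, SE 0.09, adjusted p = 0.000773). At an implied length of 2838 bases Cycs is one of the longest members, and the length correction left its value at -0.72.

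Promoters were examined for 3 motifs of factors that bind respiratory chain genes: NRF1 (GCGCATGCG), ETS factors (CCGGAAG) and YY1 (AAGATGGCG), on both strands, in RefSeq windows (GRCm38.p6) from 250 bases before to 50 bases after the start. Of the 97 members 78 had a window. The NRF1 letters were in 14.1% of them, in 3.82% of the windows of tested genes and in 1.75% of all 32851 windows of that length. ETS letters were in 24.4% of members, 2077 of the 10953 windows of tested genes and 8.86% of all windows, and YY1 letters in 10.3%, 3.28% and 1.40%. Among tested genes of up to 800 bases implied length the shares were 4.67% for NRF1, 24.7% for ETS and 4.67% for YY1. NRF1 letters stood in 5 of the 35 lower members with a window and in 6 of the 40 other tested members with one, ETS letters in 8 and 11, and YY1 letters in 3 and 5. Any of the 3 motifs stood in 13 of the 35 and in 19 of the 40, and these differences were not tested. The windows of the members with the 3 largest called decreases are shown, with motif letters in capitals.
Cycs, chr6:50566520-50566819, minus strand: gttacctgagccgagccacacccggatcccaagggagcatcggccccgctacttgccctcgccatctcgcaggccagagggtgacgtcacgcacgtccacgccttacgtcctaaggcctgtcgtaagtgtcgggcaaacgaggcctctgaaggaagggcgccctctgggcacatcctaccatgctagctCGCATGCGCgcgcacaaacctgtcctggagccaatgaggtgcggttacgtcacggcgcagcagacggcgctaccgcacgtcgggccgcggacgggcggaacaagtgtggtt
Ndufaf4, chr4:24897833-24898132, plus strand: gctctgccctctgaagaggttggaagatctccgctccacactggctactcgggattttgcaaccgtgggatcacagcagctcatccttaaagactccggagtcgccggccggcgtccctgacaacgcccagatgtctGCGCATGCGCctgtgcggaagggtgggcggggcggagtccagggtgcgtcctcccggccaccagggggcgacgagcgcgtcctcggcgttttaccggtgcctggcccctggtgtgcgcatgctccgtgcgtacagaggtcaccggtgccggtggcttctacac
Ndufa4, chr6:11907401-11907700, minus strand: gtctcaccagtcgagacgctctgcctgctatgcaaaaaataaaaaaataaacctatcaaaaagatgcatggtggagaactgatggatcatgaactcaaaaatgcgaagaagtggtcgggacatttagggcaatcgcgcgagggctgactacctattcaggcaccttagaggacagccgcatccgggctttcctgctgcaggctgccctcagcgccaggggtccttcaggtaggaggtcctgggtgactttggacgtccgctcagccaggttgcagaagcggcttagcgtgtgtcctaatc
In Cycs the NRF1 letters are on the reverse strand and begin at position -61 from the start. In Ndufaf4 they begin at position -113 and overlap a second match on the other strand. None of the 3 motifs is in the Ndufa4 window, which says only that these letters are not there. A match is a description and not a bound site.

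Complex IV, cytochrome c oxidase, had 8 lower and 1 higher gene among 14 tested of 19, with a median of -0.26. These are 57.1% lower and 7.14% higher, beside 30.4% and 28.5% of all tested genes. Ndufa4 (gene ID 17992), its most abundant member per length and a subunit despite its complex I name, changed more than any other called member. It was at 2697, 2697 and 2975 TPM with vehicle and 1230.3, 1428 and 1416 TPM with luteolin, a log2 ratio of means of -1.04. In counts Ndufa4 had a 1.94-fold decrease (log2 fold change -0.96, SE 0.10, adjusted p = 0.000299). The groups were far apart, and the value was -0.73 with the length correction. Ndufa4 makes up much of the complex IV total, which was 8463 ± 176 TPM with vehicle and 6113 ± 125 with luteolin: without it the totals were 5673 ± 142 and 4755 ± 49.8 TPM. Ndufa4l2, a paralog known for its induction in low oxygen, was at 14.5, 13.4 and 5.96 TPM with vehicle and 10.0, 6.57 and 4.13 TPM with luteolin, with overlapping groups (log2 fold change -0.69, adjusted p = 0.182).

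Cox7c and Cox7a2, small subunits of the oxidase, followed. Cox7c was at 820, 746 and 753 TPM with vehicle and 468, 492 and 492 TPM with luteolin (log2 fold change -0.57, SE 0.07, adjusted p = 0.000535). Cox7a2, the form found outside muscle, was at 272, 263 and 265 TPM with vehicle and 192, 185 and 187 TPM with luteolin (log2 fold change -0.48, SE 0.05, adjusted p = 0.000316). Both were lower in every luteolin library and under each alternative tried. Cox5a, Cox7b, Cox5b, Cox6c and Cox6a1 fell by 0.38, 0.31, 0.28, 0.24 and 0.21 on the log2 scale. Of these 5, the Cox5a call alone held with the length correction, where Cox6a1 turned to 0.018. The Cox6a1 call also ends without vehicle 1, vehicle 3 or any 1 luteolin library, the Cox5b call without vehicle 1, vehicle 3, luteolin 1 or luteolin 2, and the Cox6c call without luteolin 2.

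Cox7a2l, which joins complexes III and IV in supercomplexes, went the other way. It was at 363, 403 and 355 TPM with vehicle and 527, 483 and 496 TPM with luteolin (log2 fold change 0.44, SE 0.07, adjusted p = 0.00127). All luteolin libraries were above all vehicle libraries, the call held without any 1 library, and the value was 0.59 with the length correction. With Cox7a2 falling, the homologous pair Cox7a2 and Cox7a2l thus had called changes of opposite sign on count, TPM and length-corrected scales. Cox7a1, the muscle form, stood at 0.644 to 1.35 CPM in the 6 libraries and did not pass (-0.14, adjusted p = 0.767).

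Of the subunits with tissue forms, the common forms carried nearly all reads. Cox4i1, the common form of a regulatory subunit, was at 762, 695 and 708 TPM with vehicle and 724, 646 and 698 TPM with luteolin (log2 fold change -0.04, adjusted p = 0.659), and passed as higher with the length correction (0.17, adjusted p = 0.0467). Cox6b1 (-0.14, adjusted p = 0.0868) and Cox8a (-0.15, adjusted p = 0.0860), common forms of other small subunits, did not pass although their groups did not overlap. The 6 members without enough reads for a test were Ndufs6b and 5 alternative forms of complex IV. Cox4i2, the form of lung and low oxygen, had 15, 26 and 10 reads with vehicle and 3, 4 and 1 with luteolin. Cox6b2, the testis form, had 9, 13 and 11 reads with vehicle and 3, 1 and 1 with luteolin. Cox6a2, the muscle form, had 23, 34 and 1 reads with vehicle and 1, 0 and 7 with luteolin, high in the same libraries as the muscle markers. Cox8b, another muscle form, had 2, 5 and 0 with vehicle and 0, 0 and 3 with luteolin, and Cox7b2 had 1 read in all.

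The assembly factors of complex IV did not move one way. Of 20 tested, 6 fell and 3 rose (median -0.12), and with the length correction 4 were lower and 7 higher (median -0.055). The 6 that fell are a share close to the 30.4% of all tested genes. Sco2, a copper chaperone of the oxidase, went from 2.59 ± 0.664 to 1.10 ± 0.116 CPM (log2 fold change -1.23, SE 0.28, adjusted p = 0.00736). Cox18, which inserts the second mitochondrially encoded subunit, went from 8.82 ± 0.412 to 5.94 ± 0.564 CPM (log2 fold change -0.57, SE 0.14, adjusted p = 0.0101). Cox14, Cox20 and Surf1 rose by 0.31, 0.31 and 0.22.

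**Figure D3:**
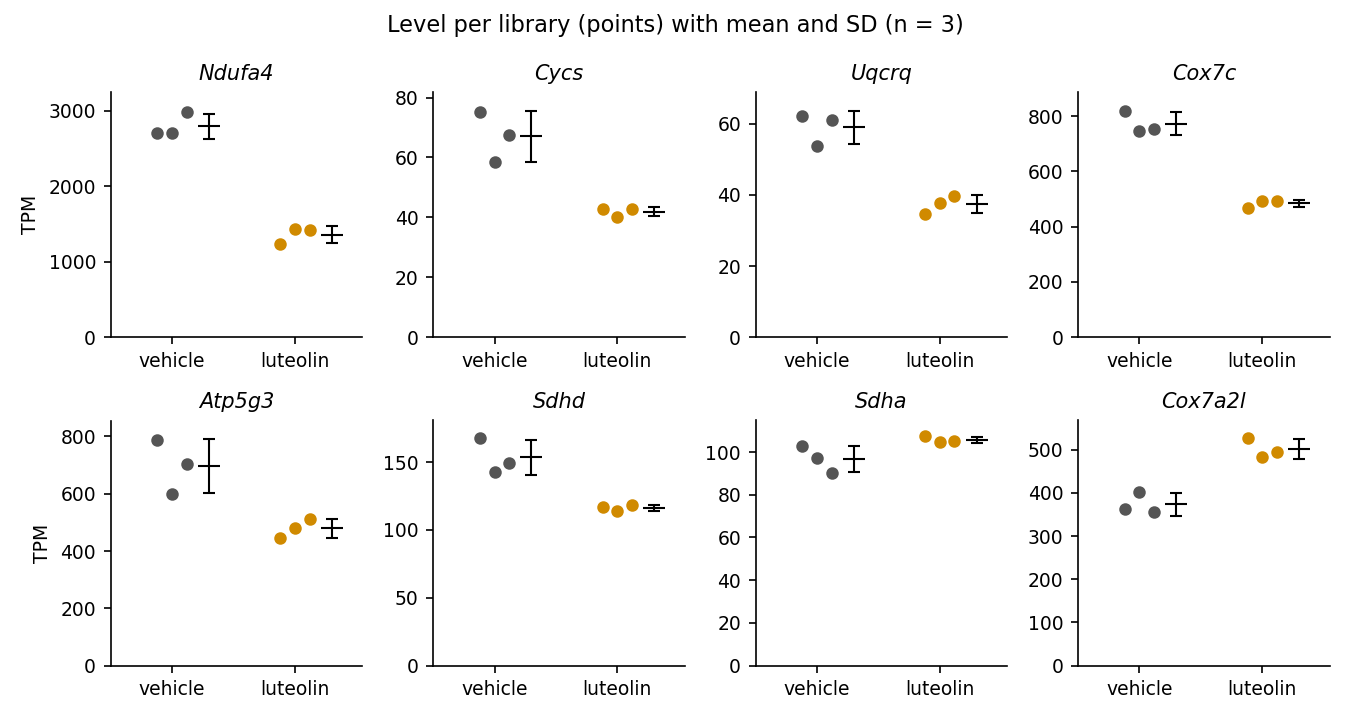
TPM of 8 members in each of the 6 libraries, from 0 upward, with mean and SD (n = 3). Ndufa4, Cycs, Uqcrq, Cox7c, Atp5g3 and Sdhd lie lower in every luteolin library, Cox7a2l lies higher in every luteolin library (483 to 527 against 355 to 403 TPM), and Sdha, which did not pass the test, lies at 104 to 107 against 90.2 to 103 TPM.

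Complex V, the ATP synthase, had 11 lower and no higher genes of 17, and all 17 log2 fold changes were below 0 (median -0.26). The 64.7% lower stand beside 30.4% of all tested genes, of which 28.5% were higher. Its members summed to 10130 ± 416 TPM with vehicle and 8036 ± 269 with luteolin. In the catalytic head Atp5b, the catalytic beta subunit, was at 842, 680 and 776 TPM with vehicle and 587, 567 and 613 TPM with luteolin (log2 fold change -0.38, SE 0.09, adjusted p = 0.00821). Atp5a1, the alpha subunit, differed by -0.35 (adjusted p = 0.0101) and Atp5c1, the gamma subunit of the rotor, by -0.24. Atp5d, the delta subunit of the rotor, had a value of -0.03 (adjusted p = 0.725). Atp5o, which joins the head to the peripheral stalk, was at 461, 431 and 460 TPM with vehicle and 333, 343 and 356 TPM with luteolin (log2 fold change -0.36, SE 0.06, adjusted p = 0.00269). Atp5l, a membrane subunit at the dimer interface, went from 813 ± 48.1 to 638 ± 13.0 TPM (log2 fold change -0.28, SE 0.06), and with the length correction its call ended (-0.05, adjusted p = 0.555).

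The 3 genes for the same c subunit of the membrane rotor, which differ only in their import sequences, did not all pass the test. Atp5g3 was at 786, 597 and 703 TPM with vehicle and 444, 481 and 512 TPM with luteolin (log2 fold change -0.51, SE 0.11, adjusted p = 0.00548). Atp5g1 was at 181, 145 and 182 TPM with vehicle and 117, 120 and 137 TPM with luteolin (log2 fold change -0.42, SE 0.12, adjusted p = 0.0185). Luteolin libraries of both lay below all vehicle libraries, and the Atp5g1 call ends without vehicle 1, vehicle 3, luteolin 1 or luteolin 2 and with the length correction. Atp5g2 was at 477, 435 and 460 TPM with vehicle and 439, 449 and 437 TPM with luteolin, with overlapping groups (log2 fold change -0.01, SE 0.06, adjusted p = 0.902), and it passed as higher with the length correction (0.21, adjusted p = 0.00990). The differences between these genes were not tested.

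Atp5h, of the peripheral stalk, had 1 library apart: it was at 111 and 117 CPM in luteolin 1 and luteolin 3, at 76.1 CPM in luteolin 2, and at 106 to 113 CPM with vehicle, and did not pass (-0.11, adjusted p = 0.568). Atp5k and Atp5md, very small membrane subunits, had values of -0.31 (adjusted p = 0.0954) and -0.26 (adjusted p = 0.0579) and did not pass. None of 4 assembly and inhibitor genes of complex V was called by edgeR: Atpaf1, a chaperone of the head, had a value of 0.17 (adjusted p = 0.0555) and Atpaf2 one of -0.20 (adjusted p = 0.119). With the length correction Atpaf1 and Atpif1, the inhibitor, passed as higher (0.24 and 0.27).

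**Figure D4:**
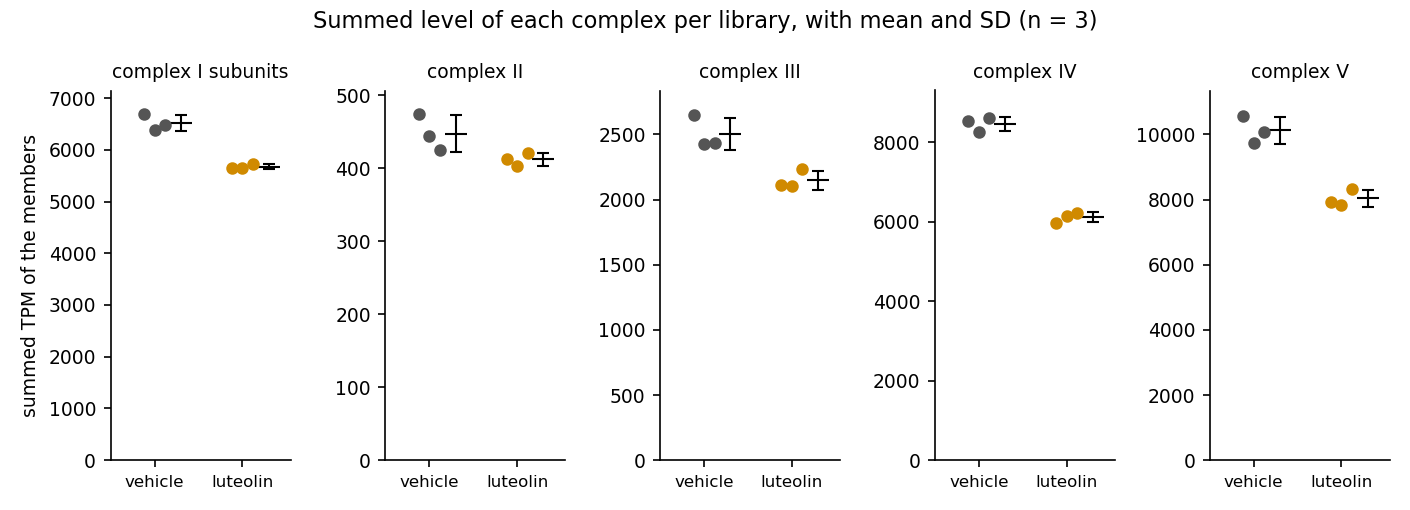
Summed TPM of the members of complexes I to V in each library, from 0 upward, with mean and SD (n = 3). All luteolin libraries lie below all vehicle libraries in each of the 5 complexes, and the mean dropped by 13.0% in complex I, 7.91% in complex II, 14.1% in complex III, 27.8% in complex IV and 20.7% in complex V. In CPM the drops were smaller except in complex III (dropped by 9.14%, 3.25%, 14.1%, 16.2% and 18.4%), and the complex II libraries of both groups overlapped.

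Length was examined because the members differ in it from other genes. The effective length that count and FPKM imply was 412 bases in the median member (37.6 to 3315), and 2639 bases in the median tested gene. Over all tested genes the median fold change differed with length, though not in one direction. It went from -0.16 in the 20 genes of up to 100 bases to -0.18, -0.21 and -0.23 at 100 to 200, 200 to 400 and 400 to 800 bases. Above that it rose to -0.14 at 800 to 1600 bases, -0.01 at 1600 to 3200 bases and 0.09 in longer genes. The 64 members of up to 800 bases had a median of -0.17, with 42.2% lower and 4.69% higher. All 1106 tested genes of that length had a median of -0.22, with 42.0% lower and 12.8% higher. Short members were thus called lower about as often as other short genes. Of 20 members between 800 and 1600 bases 13 were lower (65.0%, median -0.23), beside 37.0% and -0.14 for the 2462 tested genes of that length. Within the members, fold change and length had a Spearman rho of -0.08 (n = 91), and over all tested genes one of 0.15 (n = 13739). The sign of the value within the members depends on the setting: it was 0.14 on log2(TPM + 1), 0.014 without luteolin 3 and -0.29 with the length correction. These are descriptions across genes, which are not independent replicates and share their libraries.

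The correction took out of each library a smooth curve against length, fitted to each gene's deviation from its own mean over the libraries. It removed the call of 24 of the 44 lower members and turned none of them to higher. The 3 higher members remained higher, and 8 that had not been called passed as higher: Ndufs3, Ndufa3, Ndufb10, Ndufs5, Sdhb, Uqcrh, Cox4i1 and Atp5g2. The 20 that remained lower were Ndufs1, Ndufab1, Ndufb6, Ndufc2, Ndufaf4, Ndufaf5, Sdhd, Cyc1, Uqcrc2, Uqcrfs1, Uqcrq, Cycs, Cox5a, Cox7a2, Cox7c, Ndufa4, Atp5a1, Atp5b, Atp5g3 and Atp5o. By complex the corrected medians were 0.04 for complex I, -0.02 for complex II, -0.05 for complex III, -0.03 for complex IV and -0.07 for complex V. A correction of this kind also takes out any change of expression that truly goes with length, and these cannot be told apart here.

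**Figure D5:**
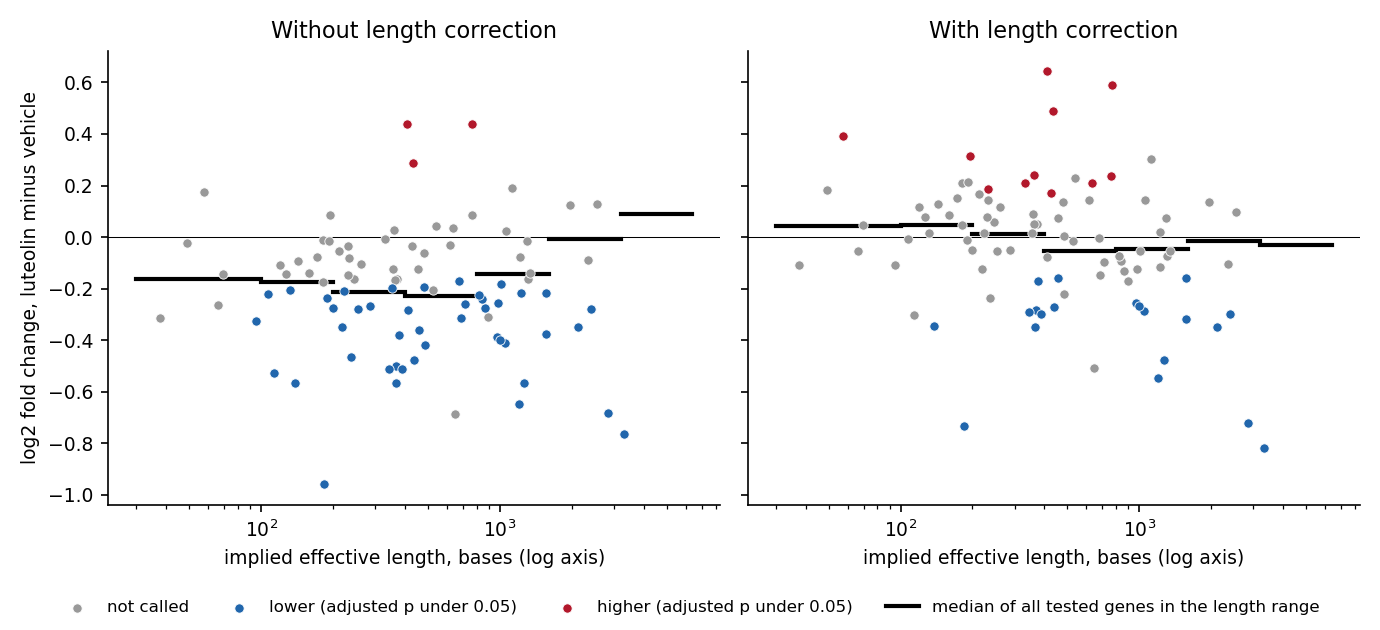
Log2 fold change (luteolin minus vehicle) of the tested members against implied effective length on a log axis, without (left) and with (right) the length correction. Points are members, coloured by call, and black bars are medians of all tested genes in 7 ranges of length. On the left the bars fall from -0.16 below 100 bases to -0.23 at 400 to 800 and then rise to 0.09 above 3200 bases, and 44 members are lower. On the right the bars lie between -0.05 and 0.05, and 20 members are lower and 11 higher.

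Very short members were also affected by a shift in the lengths themselves. Over 10744 genes of more than 400 bases the median implied length exceeded that in vehicle 1 by 2.03 bases in vehicle 2, 6.60 in vehicle 3, 10.2 in luteolin 1, 11.4 in luteolin 2 and 22.3 in luteolin 3. A few bases are negligible for most genes and large for Atp5k, a membrane subunit, whose implied lengths were 33.9, 33.3 and 36.2 bases with vehicle and 38.9, 40.5 and 46.1 with luteolin. Its level was 658 ± 20.7 TPM with vehicle and 436 ± 38.2 with luteolin, a ratio of -0.59 on the log2 scale, where the change in counts was -0.31 and did not pass. TPM thus gave larger decreases than counts for the shortest members. What caused the shift was not tested.

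Several lists of genes that work beside the respiratory chain also held more lower than higher genes. Over all tested genes 30.4% were lower and 28.5% higher, and with the length correction 30.9% and 26.2%. Of 14 citric acid cycle genes, which supply the NADH and succinate, 10 fell (71.4%) and 1 rose. Their median was -0.24, and -0.19 with 9 lower and 2 higher after length correction. Fh1, fumarase, went from 44.5 ± 4.89 to 28.3 ± 1.75 CPM (log2 fold change -0.65, SE 0.10, adjusted p = 0.00116). Ogdh, of the 2-oxoglutarate dehydrogenase complex, was the gene that rose, from 142 ± 3.41 to 190.3 ± 4.22 CPM (log2 fold change 0.42, SE 0.05, adjusted p = 0.000504). Of 6 carriers and channels 4 fell (66.7%), and 3 were lower and 1 higher after length correction. Among those that fell were the outer membrane channels Vdac2 (-0.35, adjusted p = 0.00133) and Vdac3 (-0.36, adjusted p = 0.00273).

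Mitochondrial ribosomal proteins, which translate the mitochondrially encoded subunits, had 51 lower (65.4%) and 1 higher of 78. Their median was -0.37, and -0.19 with 34 lower and 5 higher after length correction. Mrps10 went from 75.2 ± 6.34 to 35.6 ± 0.368 CPM (log2 fold change -1.08) and Mrpl33 from 29.7 ± 3.03 to 13.5 ± 0.165 CPM (-1.14). Cytosolic ribosomal proteins, also short and abundant, had 45 lower (48.9%) and 2 higher of 92 (median -0.20). After length correction 13 were lower and 15 higher (median 0.02). Rps2 and Rps27l fell by 0.67 and 0.45 on the log2 scale. Among 14 regulators of mitochondrial biogenesis 4 fell and 1 rose (median -0.13). The 28.6% lower is under the 30.4% of all tested genes. With the length correction 8 were lower and 1 higher (median -0.20). Pprc1, a coactivator of the PGC-1 family, went from 36.4 ± 4.38 to 23.8 ± 1.51 CPM (log2 fold change -0.61, adjusted p = 0.00209), and Esrra, a nuclear receptor that binds respiratory chain genes, from 48.4 ± 1.77 to 67.7 ± 7.03 CPM (log2 fold change 0.48, adjusted p = 0.00251).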

How the data were processed

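The libraries, 3 vehicle and 3 luteolin, were grouped by their titles. Per the submitters' processing notes, the tools were Bowtie2 2.2.5 and RSEM 1.2.12, and the build was mm9. Neither annotation nor strandedness was given in the sources used here, so genes that overlap or run antisense may share reads. For each of 17794 genes the authors deposited estimated counts, normalized read counts (a signal, not used), FPKM and TPM, per the file headers. The deposited FPKM and TPM divide reads by gene length. Decimals, which mark reads split between genes (over 0.001 from a whole number), were found in 10.3% to 10.8% of the deposited estimated counts. The table's 8 group averages were left aside.

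After rounding, the estimated counts went into edgeR (version 4.0.16, R 4.3.3). The filterByExpr function, with a minimum count of 10 and a minimum total of 15, retained 13838 genes, and TMM gave the scaling factors for the fit and for CPM. Luteolin was tested against vehicle by quasi-likelihood with no replicate block, and p-values were corrected by Benjamini-Hochberg across those 13838 genes at 0.05. SEs were taken from the log2 fold change and the root of the F statistic. The common biological coefficient of variation came to 13.8%. No pair of libraries was close enough to be one library deposited again. The code was tested on simulated data. Implied effective length is the count over FPKM and library total in the units of FPKM. Its median was taken over libraries with an FPKM of at least 0.25, and 99.3% of tested genes had such a length. Lengths compared between libraries are those of the 11067 genes with an FPKM of at least 1 in every library. The length correction is a loess curve per library (span 0.5) entered as an offset.

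Alternatives were DESeq2 1.42.0, relative log expression or upper quartile factors, library sizes only, no filter, 1 CPM in 3 libraries, a robust fit, the replicate block, limma-trend (limma 3.58.1) on log2 FPKM plus 1 or 0.1, the length correction with and without the block, the muscle markers' mean log2 CPM (prior count 2) as a covariate, and leaving out each library. Limma-trend on log2(TPM + 1) was chosen after seeing the data.

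The members, lists and markers were chosen with earlier results of these data known, so no list was tested as a set. Members named are the 3 of smallest p in each direction per class, the genes of complex II, Cyc1, Cycs and the paralog sets, and 2 genes of smallest p per pathway list. Others, such as Atp5b, Atp5h, Atp5k and Ndufaf6, were picked after their values were seen. The symbol pattern for cytosolic ribosomal proteins also took the Rps6k kinases and Rps19bp1, which were left out after their values were seen.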

Additional observations from a re-analysis of the deposited data

How the results depend on the processing

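Of the 44 members called lower, 15 were lower under every alternative run, and 25 were lower without any 1 library. Ndufv3 and Cox7a2l were higher without any 1 library. Leaving out 1 library gave 29 to 43 lower members (29 without luteolin 1 and 29 without luteolin 2) and 2 to 3 higher ones. Over all genes those fits called 6795 to 8493, of which 51.9% to 54.2% were decreases. Of the members' calls 90.6% to 95.6% were decreases. Medians without 1 library ran from -0.24 to -0.19 over the members, -0.18 to -0.12 in complex I, -0.15 to -0.074 in complex II, -0.23 to -0.17 in complex III, -0.34 to -0.24 in complex IV and -0.31 to -0.23 in complex V, and the rank correlation with length from -0.13 to 0.01. DESeq2 called 39 members lower and 3 higher, and relative log expression factors, the robust fit, no filter and the filter of 1 CPM kept 40 to 44 of the 44 lower calls. With DESeq2 52.2% of the calls over all genes were decreases, beside 92.9% of the members' calls. The count over all genes, 8157 called, stayed within 1.5 times of that value in each alternative.

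Replicate numbers were not taken to pair the samples. Deviations of same-numbered libraries from their group means had correlations of -0.15, 0.0267 and 0.0121. Those of libraries with different numbers ran from -0.141 to 0.18, so these values do not show whether the samples were paired. With the replicate block 41 members were lower and 3 higher, with medians of -0.20 over the members, -0.14, -0.09, -0.21, -0.26 and -0.27 in complexes I to V and a rank correlation of -0.07 with length. Over all genes 7934 were called with the block, and 52.2% of these calls were decreases.

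Scaling moved the medians further. They were -0.29 with upper quartile factors, -0.31 with library sizes only, -0.36 on log2(FPKM + 1) and -0.37 on log2(FPKM + 0.1) over the members. Under those 4 settings in turn they were -0.24, -0.26, -0.31 and -0.32 in complex I, -0.19, -0.21, -0.23 and -0.23 in complex II, -0.30, -0.32, -0.38 and -0.38 in complex III, -0.35, -0.37, -0.44 and -0.45 in complex IV, and -0.36, -0.38, -0.47 and -0.47 in complex V. On log2(TPM + 1) they were -0.19 in complex I, -0.32 in complex IV and -0.35 in complex V. FPKM values gave 72 lower and 1 higher members with either pseudocount, so that 98.6% of the members' calls were decreases. Over all genes 65.1% (pseudocount 1) and 65.3% (pseudocount 0.1) of the calls were decreases, against 51.6% in the main fit. The medians over all genes were -0.12 and -0.14 on these scales. FPKM is not brought to a common total across libraries, and its sums were lower in all 3 luteolin libraries.

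The length correction gave 20 lower and 11 higher members, and 17 and 8 with the replicate block. Of the calls over all genes 54.1% were decreases with the correction and 54.8% with both, beside 64.5% and 68.0% of the members' calls. Its medians were -0.011 over the members and 0.036, -0.018, -0.054, -0.032 and -0.073 in complexes I to V, and with the block -0.0072 over the members and 0.037, -0.016, -0.055, -0.031 and -0.072. The rank correlation with length was -0.29 with the correction, -0.29 with both, 0.15 on log2(FPKM + 1), 0.14 on log2(FPKM + 0.1) and 0.14 on log2(TPM + 1).

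With the length correction 30 tested members changed sign, among them genes described here. With the length correction, without and with the block, the values were 0.0046 and 0.0045 for Ndufs8, 0.17 and 0.17 for Cox4i1, 0.0176 and 0.0180 for Cox6a1, 0.0858 and 0.0860 for Cox6b1, 0.0781 and 0.0783 for Cox8a, 0.21 and 0.21 for Atp5g2, and 0.0459 and 0.0523 for Cox7a1. Uqcr10 was at 0.017, Ndufv1 at 0.074, Uqcrh at 0.19, Atp5d at 0.14 and Atp5h at 0.12 with the correction alone. Cox7a1 was also at 0.0322 with the muscle covariate, and from -0.49 to 0.13 without 1 library (0.13 without vehicle 2, 0.035 without luteolin 1). Ndufv3 was at -0.17, -0.18 and -0.052 on log2(FPKM + 1), log2(FPKM + 0.1) and log2(TPM + 1). Sdhb was at -0.011 with upper quartile factors, -0.029 with library sizes only, -0.051 on log2(FPKM + 1) and -0.052 on log2(FPKM + 0.1), and Sdhaf4 at -0.0137 and -0.0141 on the FPKM scales. The spread between 3 libraries limits which changes pass, and a member that was not called is not shown to be unchanged.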

Other observations

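Per length, the members of 1 complex were far from equal in level. Ndufa4 alone made up 2790 of the 8463 TPM of complex IV with vehicle and 1358 of 6113 TPM with luteolin. The assembly factors of complex I summed to 170 ± 7.57 TPM with vehicle and 149 ± 4.95 with luteolin, beside 6515 and 5668 TPM of its subunits. The members together held 2.83% of all TPM with vehicle and 2.26% with luteolin.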
